A study of Mus musculus with 2 samples.

Results

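Nerve and Schwann cell genes were examined in incisor tooth germ of newborn wild-type and *Sox21* KO mice. The set held 8 genes, *Nfasc*, *Gal*, *Mbp*, *Prx*, *Erbb3*, *Ngfr*, *Gap43* and *Nefl*, which carried 10 of the 55679 probes on the array, among 21244 genes with a reference symbol. They were taken by gene name from both arrays and had been chosen by their measured signals on these same arrays, partly for the size of the KO to WT differences given below, so these differences are described and not tested. RNA from the incisor at postnatal day 0 was hybridized to Agilent one-colour arrays, with 1 array for the wild-type (WT) group and 1 array for the *Sox21* KO group. C57BL/6J mice served as WT, the methods mention a soft diet for *Sox21* KO mice, and no treatment is given for either group. The methods name day 1 for the tooth germs, whereas the sample labels name day 0. The genetic background of the KO mice and the number and sex of the animals behind each array are not given in the sources used here.

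Myelinating nerves are built from axons and the Schwann cells that wrap them. Axons carry neuregulin, which ErbB2 and ErbB3 on Schwann cells receive, and Schwann cells in turn lay down myelin from MBP, periaxin and other proteins. Neurofascin, made by both cell types, is an adhesion molecule of the node of Ranvier, the gap between stretches of myelin. The dental pulp is densely supplied with sensory fibres from the trigeminal ganglion, whose cell bodies lie outside the tooth, so the axons of a dissected tooth bring only the RNA that axons carry. Schwann cells bring their whole RNA. Some of these genes are also used outside nerve, since p75NTR marks dental epithelium and mesenchyme as well, and *Gal*, which encodes the neuropeptide galanin, is expressed in several non-neural tissues.

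The findings turned on 3 of the members, *Nfasc*, *Gal* and *Nefl*, and each was read by 1 probe of 60 bases. The probe sequences of *Gal* and *Nefl* are shown because the differences rest on what these single oligonucleotides captured. They are written 5′ to 3′ in lower case, whole for *Gal* and as the first 30 bases for *Nefl*. In mm9 coordinates, the *Gal* probe lies at chr19:3411143-3411202 on the minus strand and the *Nefl* probe at chr14:68705638-68705698 on the plus strand. No mm9 annotation was used here, so the exon or UTR that each probe falls in is not stated. The files list 4 RefSeq transcripts for the *Nfasc* probe, so the glial and the neuronal neurofascin transcripts were not separated.
Gal probe: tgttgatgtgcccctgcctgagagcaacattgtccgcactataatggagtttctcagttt
Nefl probe, first part: gactttcaatgtgtgctatgaatttcctcc

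*Sox21* encodes a DNA-binding protein of the SOX family, so the 250 bases before the transcription start were also read where RefSeq sequences of assembly GRCm38.p6 gave them. They covered 4 of the 8 members with 5 windows, and those of *Gal* and *Nfasc* are printed here because these genes had the largest differences. The windows are chr19:3414545-3414794 for *Gal*, and chr1:132642859-132643108 and chr1:132707327-132707576 for the 2 annotated starts of *Nfasc*, all on the minus strand. Whether transcription begins at these annotated starts in the incisor was not tested. Forms of the SOX core, AACAAT and ACAAAG, were searched on both strands, and these letters were chosen after the array values were known. In all 5 windows, which also include *Ngfr* and *Prx*, each was found 0 times, so no letters are in capitals. Of 32851 such windows in the genome, 9.42% held AACAAT, 16.5% held ACAAAG and 24.0% held at least 1 of them. This says only that these letters are not within these windows.
Gal upstream: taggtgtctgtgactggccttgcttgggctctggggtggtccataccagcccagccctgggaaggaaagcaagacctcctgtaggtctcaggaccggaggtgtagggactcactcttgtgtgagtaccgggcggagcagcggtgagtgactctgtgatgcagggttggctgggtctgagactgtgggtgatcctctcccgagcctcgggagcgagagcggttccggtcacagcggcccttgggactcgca
Nfasc upstream, start 1: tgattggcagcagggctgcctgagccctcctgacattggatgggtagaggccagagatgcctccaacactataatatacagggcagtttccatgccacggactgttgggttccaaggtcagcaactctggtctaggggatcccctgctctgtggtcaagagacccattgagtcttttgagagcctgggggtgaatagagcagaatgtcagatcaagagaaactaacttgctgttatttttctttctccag
Nfasc upstream, start 2: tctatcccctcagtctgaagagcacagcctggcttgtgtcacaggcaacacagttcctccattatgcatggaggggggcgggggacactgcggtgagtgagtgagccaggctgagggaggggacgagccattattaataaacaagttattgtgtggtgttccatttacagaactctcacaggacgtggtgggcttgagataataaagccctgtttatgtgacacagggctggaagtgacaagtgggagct

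Signals are given below as the scanner's processed signal, from which background had been removed, with the error that the scanner software attached to the spot. For comparison between arrays each signal was divided by the 75th percentile over its own array, this percentile being 268 for WT and 276 for *Sox21* KO, and the log2 ratio is *Sox21* KO minus WT. The ± after a ratio is the spot error carried to the log2 scale. It is an error within the arrays and does not include the variation between mice. With 1 array per genotype no difference has a replicate check, no p-value was computed, and the precision is limited by having 2 arrays in all. Repeated spots give a second measure of array noise, and over 268 probes with at least 5 spots the SD of the log2 ratio among spots had a median of 0.085. Genes are called measured where the scanner marked a probe of theirs as well above background on the WT and the KO array alike, as 13803 genes were. The median log2 ratio of these genes was 0.013, 47.6% of them lay below 0, and the 5th and 95th percentiles were -0.47 and 0.48. Of the measured genes, 0.667% were at least 2-fold lower in *Sox21* KO and 0.739% at least 2-fold higher. The targeted gene kept a signal on the KO array, falling from 1362 to 659 at 1 probe and from 286 to 103 at the other, with log2 ratios of -1.09 and -1.51. Whether these probes lie in the deleted sequence is not given in the sources used here. The tooth markers *Amelx* at 394211 and 428250 and *Dspp* at 29545 and 30230 were far above background on the WT and KO arrays.

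Of the 8 members, 7 were measured and *Erbb3* was not. Of the 7, 3 genes, *Nfasc*, *Gal* and *Nefl*, were at least 2-fold lower on the *Sox21* KO array and 0 were higher, where the background over all genes was 0.667% for lower genes. Over probes, 3 of the 9 measured were lower, beside 0.794% of all measured probes. These shares are printed side by side and nothing is read from them, because the members were chosen with these values known. The median over the 7 was -0.24. The remaining 4 genes lay between -0.24 and 0.023, with a median of -0.11. No member fell in the gap between -1.21 and -0.24, which the choice of members could itself have shaped. Under other settings the gap was not empty, as *Nefl* was at -0.54 with the normexp background, which left 2 members at least 2-fold lower, and *Mbp* at -0.43 with its dimmest probe. The threshold of -1 lies in that gap, and the members nearest to it were *Nefl* at -1.21 on its lower side and *Ngfr* at -0.24, far from it, on the other.

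**Figure D1:**
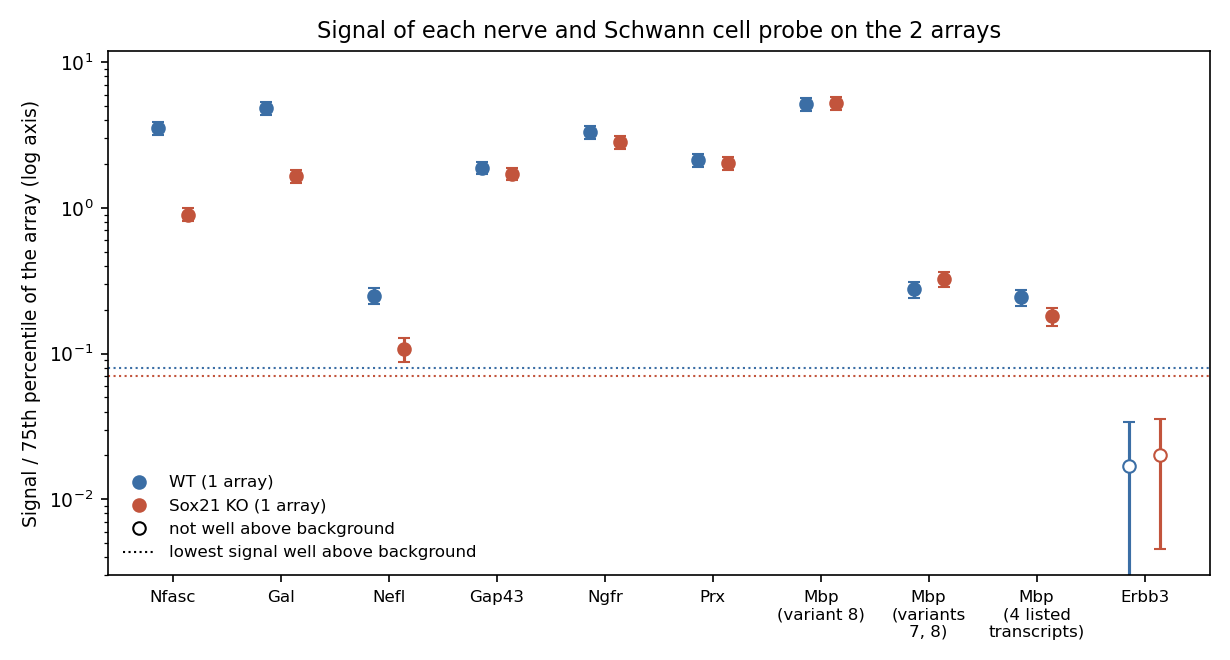
Normalized signal (processed signal divided by its array's 75th percentile, log axis) of the 10 probes on the WT array (blue) and the Sox21 KO array (red), 1 array each. Bars are the scanner's error of each spot or mean of spots, open circles mark signals not well above background, and dotted lines mark the lowest normalized signal well above background, 0.0796 on the WT array and 0.0706 on the KO array. The KO signals of Nfasc, Gal and Nefl lie below the WT signals by more than the bars. For Gap43, Ngfr, Prx and the brightest Mbp probe the bars overlap.

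*Nfasc*, the neurofascin gene, had the largest difference among the members. Its processed signal was 942 ± 94.4 on the WT array and 248 ± 25.3 on the *Sox21* KO array, or 3.52 and 0.899 after normalization. The KO signal was 3.91-fold lower, a log2 ratio of -1.97 ± 0.21. Only 10 of the 13803 measured genes had a lower ratio, so that *Nfasc* ranked 11. Both signals were far above the lowest level marked as well above background, 21.3 on WT and 19.5 on KO. Under the 9 settings tried for the scaling, background and probe choice, the ratio stayed between -1.99 and -1.66. The paper also prints a normalized wild-type tooth germ value from its separate tooth and skin comparison. For *Nfasc* that wild-type value lay below the KO value given here. Those arrays were not used here, so the spread between wild-type samples was not tested.

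The measured partners of neurofascin at the node had log2 ratios closer to 0. *Cntn1* and *Cntnap1*, which encode contactin 1 and Caspr of the paranodal junction next to the node, had log2 ratios of -0.0049 and 0.17. *Nrcam*, encoding another adhesion molecule of the node, had a dim signal of 50.4 on WT and 33.5 on KO and a ratio of -0.63 ± 0.31. *Ank3*, encoding the ankyrin G scaffold that anchors neurofascin to the cytoskeleton, was at 0.37. *Gldn*, encoding gliomedin, the Schwann cell ligand that gathers neurofascin at nodes, had a signal of 40.3 on WT and 21.4 on KO, where it was not well above background, and was at least 1.94-fold higher on WT. In the list of node and axon adhesion genes 11 of 16 were measured, *Nfasc* was the only gene at least 2-fold lower, 7 lay below 0 and the median was -0.15. Without *Nfasc* the median of the other 10 was -0.076.

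*Gal* showed the second largest difference. The signal was 1291 ± 129 on WT and 456 ± 45.8 on *Sox21* KO, or 4.82 and 1.65 after normalization, and the KO array was thus 2.91-fold lower. The log2 ratio was -1.54 ± 0.20, at rank 21 of 13803 from the lowest, and it ran from -1.56 to -1.41 over the 9 settings. In the paper's tooth and skin comparison the normalized wild-type tooth germ value of *Gal* lay above the WT value given here. The receptors for galanin, *Galr1*, *Galr2* and *Galr3*, were not well above background on either array, and their ratios are left out. Other neuropeptide genes differed less. Among the 12 genes of this list 6 were measured, *Gal* alone was at least 2-fold lower, and the other 5 had a median of -0.19 with values from -0.28 for *Calca*, the CGRP gene of sensory fibres, to 0.57 for *Tac1*, the substance P gene. The last 2 genes were picked after their values were seen, as the ends of that range.

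*Nefl*, which encodes the light neurofilament of axons, had a signal of 66.6 ± 8.44 on WT and 29.7 ± 5.70 on *Sox21* KO, or 0.249 and 0.108 after normalization. The KO signal was 2.31-fold lower, with a log2 ratio of -1.21 ± 0.33 and rank 53. The probe of *Nefl* was dim, and its error was larger than those of *Nfasc* and *Gal*. The KO signal of 29.7 stood close to 19.5, the dimmest signal on that array that carried the mark. With the background corrected by normexp in place of the scanner's own method, the log2 ratio became -0.54 and *Nefl* was no longer 2-fold lower. Among the 2081 measured genes whose mean normalized signal was within 2-fold of that of *Nefl*, a class set after its values were seen, 1.63% were at least 2-fold lower. The SD of the log2 ratio in that class was 0.43, against 0.32 over all measured genes. The other neurofilament genes, *Nefm* and *Nefh* for the medium and heavy chains, were not well above background on either array. The signals on WT and KO were 10.2 and 6.46 for *Nefm*, and 18.3 and 3.98 for *Nefh*.

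**Figure D2:**
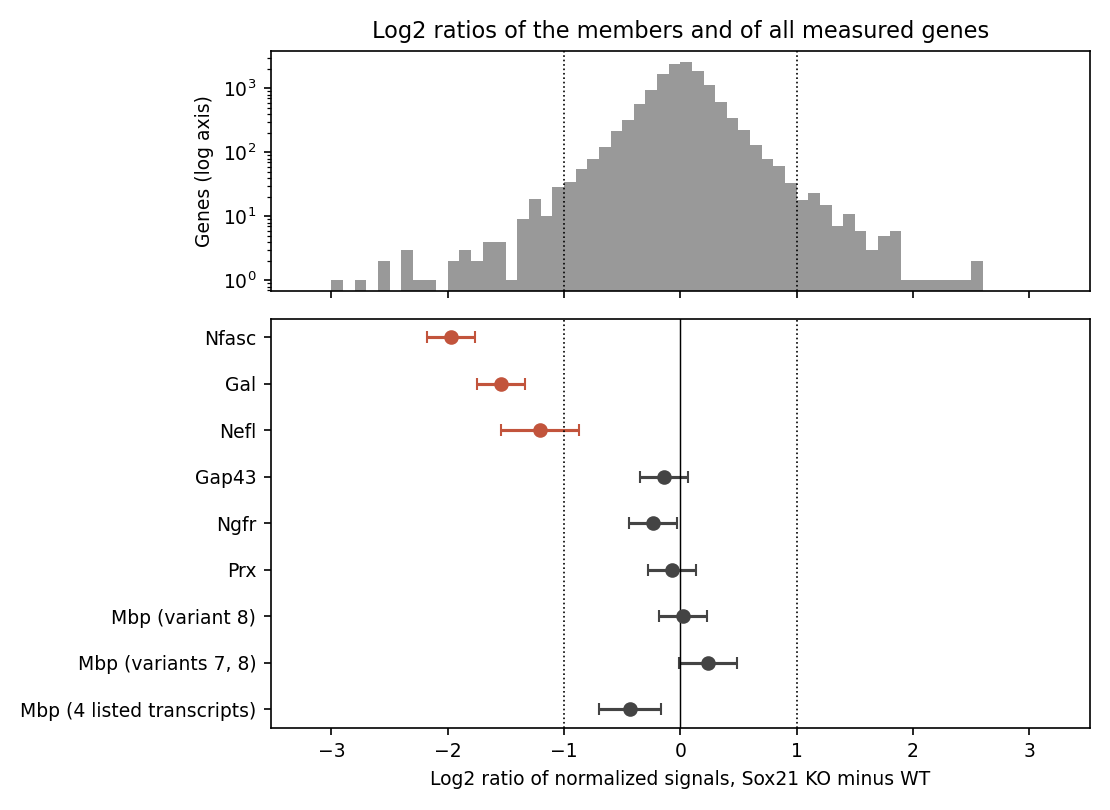
Upper panel, number of genes (log axis) by log2 ratio of normalized signals, Sox21 KO minus WT, over the 13803 genes measured on both arrays. Lower panel, the 9 measured probes of the members on the same axis with their within-array error, with probes at least 2-fold lower in red and dotted lines at a 2-fold difference. Nfasc, Gal and Nefl lie in the lower tail at -1.97, -1.54 and -1.21, and the 3 Mbp probes spread from -0.43 to 0.24.

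*Gap43*, which encodes a membrane protein of growing axon tips, was at 507 on WT and 473 on *Sox21* KO, a log2 ratio of -0.14 ± 0.20. Its signals differed by less than the error of the spots. *Gap43* and *Nefl* thus gave unlike values, although both are commonly used as axon genes. The list of axon cytoskeleton and growth genes held 18 genes, of which 15 were measured, 3 were at least 2-fold lower (*Crmp1*, *Stmn3* and *Nefl*) and 14 lay below 0, where 0.667% of all measured genes were at least 2-fold lower and 47.6% lay below 0. *Nefl* is among them by choice, and without the members 2 of 13 were lower. Their median log2 ratio was -0.38, beside 0.013 over all measured genes, and it was also -0.38 over the 13 that were not members, 12 of which lay below 0. *Crmp1*, which encodes a collapsin response mediator protein of neurons, had a signal of 227 on WT and 68.8 on KO and a ratio of -1.76 ± 0.24. *Stmn3*, for a neuronal microtubule regulator, was at 90.7 and 39.8 with a ratio of -1.23 ± 0.27. With the normexp background *Crmp1* alone of these 3 stayed at least 2-fold lower. *Prph*, encoding the intermediate filament peripherin, was well above background on KO only and at least 1.30-fold higher there.

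The probes of 1 axon gene disagreed strongly. *Mapt*, which encodes the tau protein, was singled out after its values were seen. Its 3 measured probes gave log2 ratios of -0.91, -1.11 and -4.26. At the probe with the lowest ratio the signal was 478 on WT and 25.8 on KO, whereas the others read 194 and 106, and 162 and 76.9. The brightest probe by mean log2 signal, which counted for the gene, was the one at -0.91.

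*Ngfr*, encoding p75NTR, the receptor for neurotrophins on Schwann cells and sensory neurons, was printed at 10 spots on each array (mm9 chr11:95430211-95430270, minus strand). The scanner marked 2 of these as outliers, and the other 8 were used. They ran from 839 to 930 on WT, with a median of 901, and from 712 to 812 on KO, with a median of 783. The ranges of the used spots did not overlap, whereas with all 10 spots the KO range reached 867. The mean log2 ratio was -0.24 ± 0.20, with an SD of 0.075 between the 8 spots (range -0.35 to -0.11), and all 8 lay below 0. With all 10 spots it was also -0.24. The spread among the spots shows the noise between spots only. A shift of a whole array moves all of them, and with the arrays scaled to their medians the ratio was -0.14. The spots are repeated readings of the same labelled RNA and not separate animals, and 14.7% of all measured genes had a lower ratio than *Ngfr*.

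**Figure D3:**
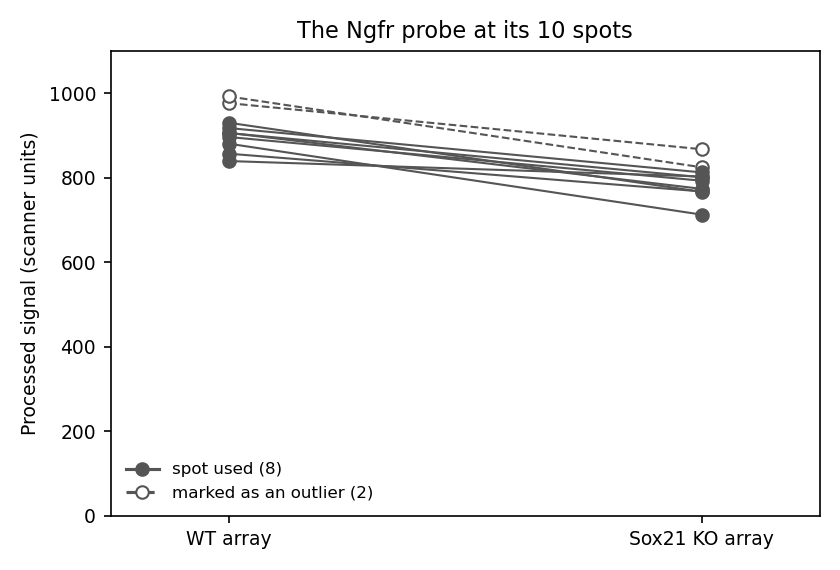
Processed signal (scanner units, axis from 0) of the Ngfr probe at its 10 spots on the WT and the Sox21 KO array, with lines joining the same spot number. Filled circles are the 8 spots used and open circles the 2 that the scanner marked as outliers, and each line falls from WT, where the spots lie between 839 and 992, to KO, where they lie between 712 and 867.

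Partner receptors of p75NTR were close to 0. *Ntrk2* and *Ntrk3*, the genes for the receptors TrkB and TrkC, both had a log2 ratio of 0.11, and *Sort1*, encoding the co-receptor sortilin, was at -0.14. Of 17 genes for neurotrophins and their receptors 14 were measured, 0 were at least 2-fold apart and the median was 0.052. The count of 0 says little where 0.667% of all measured genes were lower and 0.739% higher.

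Among the myelin genes, *Prx* encodes periaxin, which links the Schwann cell membrane to the extracellular matrix through the DRP2 complex. Its probe (mm9 chr7:28304999-28305058, plus strand) was at 573 on WT and 561 on *Sox21* KO, with a log2 ratio of -0.071 ± 0.20. *Drp2* was at -0.10. The sign of the *Prx* ratio is not settled, as it was 0.025 when the arrays were scaled to their medians. *Gap43* and *Ngfr* stayed below 0 under all 9 settings, at -0.16 to -0.044 and -0.25 to -0.14.

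*Mbp*, which encodes myelin basic protein, was read by 3 probes on the plus strand of chromosome 18 (mm9), and they disagreed in sign. The longer golli transcripts of this gene start far upstream and are also made outside myelinating cells, whereas the shorter ones encode the classic myelin proteins. The brightest probe, at 82727929 to 82727988, is listed for transcript variant 8 only, one of the golli transcripts, and had a signal of 1385 on WT and 1449 on KO with a log2 ratio of 0.023 ± 0.20. The probe at 82691469 to 82691528, listed for variants 7 and 8, had a signal of 74.1 on WT and 90.0 on KO with a ratio of 0.24 ± 0.25, and its local background was marked as an outlier on both arrays. Another probe, listed for variant 7 and 3 other transcripts, runs from 82742266 to 82744570 and so spans an intron. Its signal was 65.1 on WT and 49.6 on KO, with a ratio of -0.43 ± 0.27. Taking the dimmest measured probe of each gene moved the median over the members from -0.24 to -0.43, because *Mbp* then counted with that probe. The sign at the brightest probe is not settled, as it was -0.0050 with quantile normalization, -0.0077 with the normexp background and 0.12 with the arrays scaled to their medians.

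*Erbb3*, the neuregulin receptor of Schwann cells, had a signal of 4.55 on WT and 5.55 on *Sox21* KO at its single probe (mm9 chr10:128006424-128006483, minus strand). Neither was well above background. The 308 negative control spots had medians of 5.13 and 4.69 and 95th percentiles of 5.99 and 5.39 on the WT and KO arrays, so the *Erbb3* signal lay below the median of the negative controls on WT and slightly above their 95th percentile on KO, and no ratio is given. A signal near background on 1 probe does not show that the gene was silent. The other genes of this pathway were measured only in part. *Nrg1*, encoding the axonal ligand, was at 0.017 and *Erbb2*, encoding the co-receptor, at 0.23. *Nrg2* was well above background on WT only, with signals of 45.7 and 5.33, and at least 2.42-fold higher there. Of 8 neuregulin and ErbB genes 3 were measured, all 3 above 0, with a median of 0.21.

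*Sox10*, the transcription factor that defines the Schwann cell lineage, was at 230 on WT and 229 on KO, with a log2 ratio of -0.051 ± 0.21. *Gfra3*, the artemin receptor gene, was at -0.062. Among 20 Schwann cell identity genes 16 were measured and 0 were at least 2-fold apart, a count that says little where 0.667% of all genes were lower and 0.739% higher. Of the 16, 10 lay below 0 and the median was -0.036. Without *Ngfr*, 9 of the other 15 lay below 0 and their median was -0.020. *Gfap*, encoding an intermediate filament of glia, was on KO only and at least 1.16-fold higher there. Among 16 myelin genes 10 were measured, 0 were at least 2-fold apart, 5 lay below 0 and the median was 0.010. Without *Mbp* and *Prx*, 4 of the other 8 lay below 0 and their median was 0.017. *Gjc3*, for a connexin of myelinating glia, was on KO only, at least 1.10-fold higher. Scaling the arrays to their medians turned the sign of the Schwann cell median over all 16, which became 0.061, and quantile normalization that of the myelin median over all 10, which became -0.0044.

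**Figure D4:**
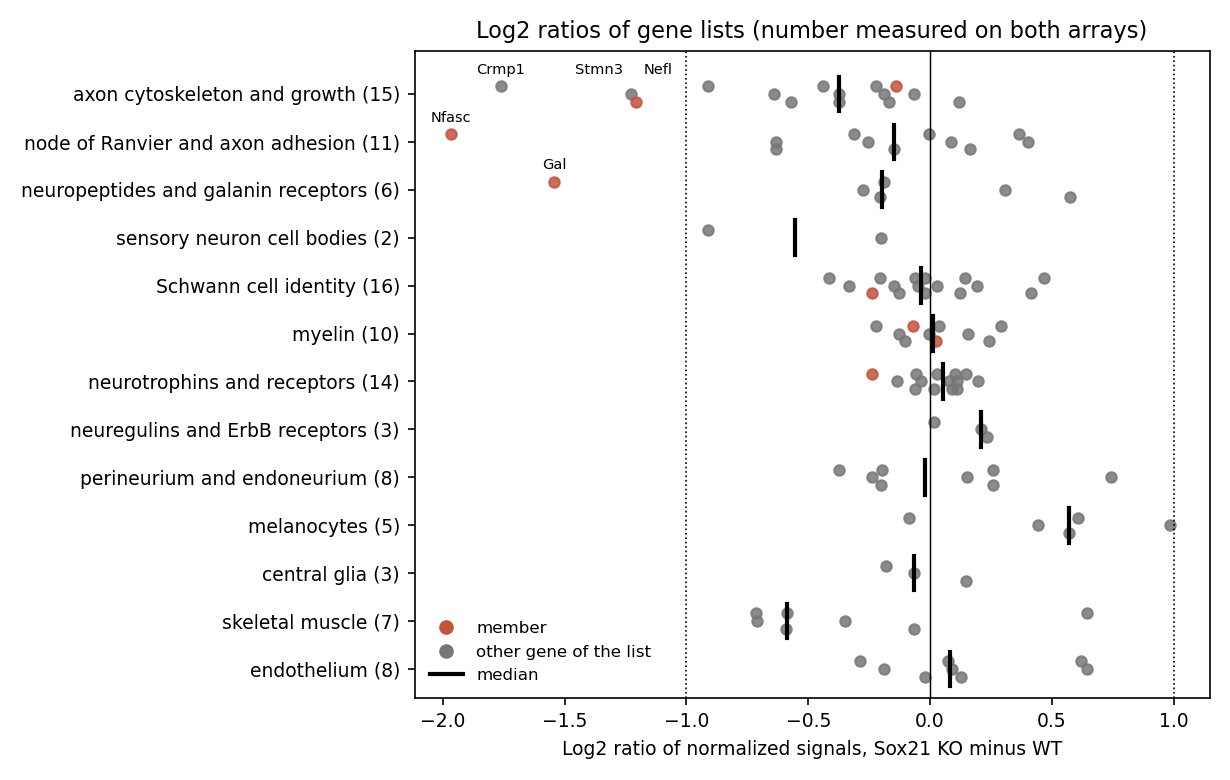
Log2 ratio of normalized signals, Sox21 KO minus WT, for the genes of 13 lists, with the number of genes measured on both arrays after each name, members in red, other genes in grey and the median of each list as a black bar. Dotted lines mark a 2-fold difference, and gene names stand beside genes past it. The axon list has its median at -0.38, whereas the Schwann cell, myelin and neurotrophin lists have medians between -0.036 and 0.052.

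Over the 8 nerve lists together, 74 of 110 genes were measured, and 5 were at least 2-fold lower and 0 higher on the KO array. The 5 were *Nfasc*, *Gal*, *Nefl*, *Crmp1* and *Stmn3*, of which the members *Nfasc*, *Gal* and *Nefl* were chosen with these ratios known, so nothing is read from that count. Without the members 67 were measured, 2 were at least 2-fold lower (2.99%, beside 0.667% of all measured genes), 38 lay below 0 (56.7%, beside 47.6%) and the median was -0.036. In bulk tissue fewer cells or fibres and less RNA per cell cannot be told apart. Genes of the cell bodies of sensory neurons gave little signal, with 2 of 8 measured, namely *Isl1* at -0.20 and *Scn10a* at -0.91. The defining genes *Pou4f1*, *Prdm12* and *Avil* were not well above background on either array. Their signals on WT and KO were 20.1 and 5.01 for *Pou4f1*, 9.76 and 4.81 for *Prdm12*, and 18.3 and 18.0 for *Avil*. The summed normalized signal of the 2 measured genes of the sensory neuron list was 2.26 on WT and 1.85 on KO.

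Markers of other tissues also differed between the arrays. Of 10 skeletal muscle genes 7 were measured and 6 of these were lower on KO, with a median log2 ratio of -0.59 and a summed normalized signal of 69.1 on WT and 49.8 on KO. *Chrnd*, for a subunit of the muscle acetylcholine receptor, was on WT only and at least 2.37-fold higher there. Of the 9 ameloblast genes all were measured and 6 were lower, among them *Amtn* at -1.89 and *Klk4* at -1.05, enamel proteins of the maturation stage, with sums of 3178 and 2883. For odontoblast and dental mesenchyme genes the median was 0.20, with 1 of 7 below 0 and sums of 567 and 621. Melanocytes share the neural crest origin and *Sox10* with Schwann cells, and 4 of their 5 measured genes were higher on KO, with a median of 0.57 and sums of 5.23 and 8.49, while *Tyrp1*, *Mlana*, *Slc45a2* and *Oca2* were not well above background. The lists for perineurium and endoneurium, for central glia and for endothelium had medians of -0.022, -0.066 and 0.082, with 8 of 8, 3 of 8 and 8 of 8 measured. The perineurium and endoneurium list held very bright genes, such as *Wif1* at 22701 on WT and 20379 on KO. How much of that signal came from nerve was not tested. The part of muscle, epithelium or other tissue in the differences of *Nfasc*, *Gal* and *Nefl* was not tested.

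The genes most like *Nfasc* and *Gal* were sought by distance in the plane of mean log2 normalized signal and log2 ratio, over these 2 arrays. The nearest to *Nfasc* were *Greb1* at a distance of 0.68 with a log2 ratio of -2.60, *Wfikkn2* at 0.71 with -1.26, and *Eif2s3y* at 0.73 with -1.25. The nearest to *Gal* were *Trib1* at 0.32 with -1.26, *Slc39a4* at 0.38 with -1.22, and *Crhr1* at 0.39 with -1.32. *Eif2s3y* lies on the Y chromosome, and other sex-linked genes were therefore looked up. *Ddx3y*, also on the Y chromosome, was at 328 on WT and 194 on KO with a ratio of -0.80, whereas *Xist*, the RNA of the inactive X chromosome, was at 80.6 and 110 with a ratio of 0.40. *Kdm5d* was near background on both arrays. At 1 of its probes *Uty* was well above background on WT only. *Eif2s3y* and *Ddx3y* were thus lower and *Xist* higher on the KO array. The part of this difference between the RNA samples in the values of the nerve genes was not tested.

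**Figure D5:**
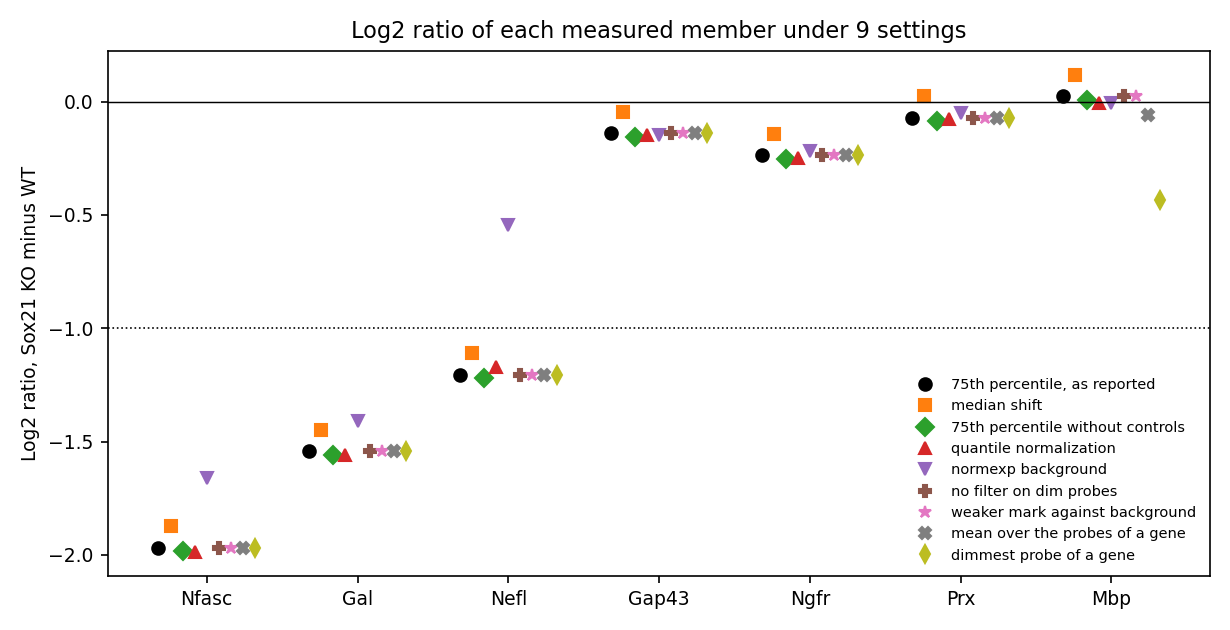
Log2 ratio, Sox21 KO minus WT, of the 7 measured members under 9 settings, with the reported setting as black circles and a dotted line at a 2-fold lower signal. Nfasc and Gal stay below the line under all 9, Nefl rises to -0.54 with the normexp background, and Mbp runs from -0.43 to 0.12.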

How the data were processed

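Agilent one-colour arrays of incisor RNA from WT and *Sox21* KO mice were used, 1 array per genotype. Per the file headers and labels, the authors extracted processed signal intensity with Feature Extraction 10.7.3.1, which removes background within the array. The authors also deposited a table of linear ratios, the processed signals over a divisor for each array, 268 and 276, that was constant to a relative difference of 1.37e-06. These lie at the 75th percentile over all 62976 spots. Both arrays shared a slide and scan settings, and 0 spots were saturated. The median local background was 27 on WT and 23 on KO, and of 59305 spots other than controls 49.7% and 50.4% were well above it.

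Here log2 of the processed signal over the 75th percentile was computed, 267 spots marked as outliers on either array were left out, spots of a probe were averaged, and the brightest probe measured on both arrays stood for a gene. Symbols and upstream sequences came from RefSeq genes of GRCm38.p6, the symbols matching 26298 probes by accession, 2044 by symbol and 355 by older symbol, while 26982 kept the name in the file. Coordinates of probes are those of mm9 in the files. Genes on 1 array alone got a bound, the signal there over the larger of the other signal and the lowest signal well above background on that array.

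The members, gene lists and naming rule were chosen with earlier results of these data known. Named were all members with every probe, list genes at least 2-fold apart or on 1 array alone, direct partners of members, and the 3 genes nearest to *Nfasc* and to *Gal*. Some of these partners and 1 probe sequence are not reported here. Genes named outside this rule were checks of tissue, of the target and of sex, defining markers of a list, or are marked as chosen later. No test was run, since each genotype had 1 array. Alternatives covered scaling, background (normexp, offset 50), filter, probe choice and a 1.5-fold threshold. The steps were tested on simulated data. Python 3.11.15, numpy 2.4.6, pandas 2.3.3, matplotlib 3.10.9, R 4.3.3 and limma 3.58.1 were used.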

Additional observations from a re-analysis of the deposited data

How the results depend on the processing

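*Nfasc* and *Gal* stayed at least 2-fold lower under each alternative run, and *Nefl* under each except the normexp background. Scaling to the median put the log2 ratio of *Nfasc* at -1.87, of *Gal* at -1.45, the median over the members at -0.14, and the medians of the axon, Schwann cell and myelin lists at -0.28, 0.061 and 0.11, when the median of all genes also moved to 0.11. With normexp, *Nfasc* was at -1.66, *Gal* at -1.41, and 1 axon gene in place of 3 was at least 2-fold lower. With the dimmest probe the median over the members was -0.43. *Nfasc*, *Gal*, *Nefl*, *Gap43* and *Ngfr* kept their sign under each alternative they were recomputed under, and the axon median under the median shift, quantile normalization and normexp, which were the alternatives run for the lists. The Schwann cell median turned positive under the median shift, the myelin median turned to -0.0044 with quantile normalization and -0.028 with normexp, *Prx* to 0.025 under the median shift, and *Mbp* to -0.0050 with quantile normalization, -0.0077 with normexp, -0.057 with the mean over probes and -0.43 with the dimmest probe. Over the main results, each under the alternatives run for it, 42 recomputed values stayed within the spread between repeated spots or, for counts, within 1.5 times, and 10 moved further.

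Over all genes, 92 lower and 102 higher became 40 and 46 with normexp, 695 and 508 without the filter on dim probes, 321 and 293 with the weaker mark against background, and 412 and 441 at 1.5-fold. The lower genes made up 47.4% of those called, 31.8% under the median shift (63 and 135) and 57.8% without the filter. Signal over background limits *Nefl*, *Erbb3* and 2 *Mbp* probes. No paired analysis was possible because each group had 1 array, and for the same reason leaving out an array was not possible.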
